A study of Homo sapiens with 12 samples.

Results

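The genes described here are the protein-coding genes whose genomic span, from annotated start to annotated end with introns included, is at least 500000 bases. They were followed by RNA-seq in HCT-116, an established line of human colorectal carcinoma cells, given the topoisomerase I poison CPT-11 (irinotecan). The rule took gene type and coordinates alone and used no expression value. It found 317 genes among the 19951 protein-coding genes and 59172 features of the deposited table. The median span was 725786 bases, the shortest member was AFF2 at 500044 bases, and the longest was RBFOX1 at 2473536 bases. Span is a different quantity from the exonic length by which FPKM (fragments scaled by exonic length and by a factor per library) was divided.

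The 12 libraries formed 4 groups of 3. Wild-type cells received CPT-11 for 24 h (CPT-11), or were kept in lovastatin for 4 h and then given CPT-11 for 24 h (lovastatin + CPT-11). Cells with SHP2 silenced by a short hairpin were also given CPT-11 for 24 h (SHP2-silenced + CPT-11). Wild-type cells with no treatment were the baseline (untreated). No library had lovastatin without CPT-11, or silencing without CPT-11, so against untreated cells those agents cannot be told apart from CPT-11. The treatment label of the silenced samples also mentions lovastatin, while their titles do not. HMGCS1, a cholesterol synthesis gene known to respond to statins, had 24.9 to 25.8 FPKM in silenced cells, 101 to 105 FPKM with lovastatin + CPT-11, 25.2 to 31.2 FPKM with CPT-11 and 28.1 to 31.0 FPKM untreated. The silenced samples were grouped by title. Whether the 3 libraries of a group are separate cultures is not stated, so the spread behind each p-value is that between these libraries and may be technical.

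Topoisomerase I relaxes the supercoils that build up in front of and behind RNA polymerase II as it moves along DNA. CPT-11 is converted in cells to a camptothecin that holds the enzyme on nicked DNA. A polymerase on a very long gene has far more template to cross than one on a short gene, and in cultured neurons topoisomerase I inhibitors are known to lower the expression of long genes. Many very long genes encode synaptic and adhesion proteins, and several lie at common fragile sites, regions that break under replication stress.

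Libraries held 14447847 to 16224271 reads assigned to genes, recovered from the FPKM values. SHP2 silencing was visible in PTPN11, which encodes SHP2, at 6.01, 6.54 and 7.15 FPKM in silenced cells, against 48.2, 50.5 and 43.9 FPKM with CPT-11 and 53.3, 53.8 and 55.4 FPKM untreated. Summed epithelial markers stood at 500 to 592 FPKM in every library, while 4 endothelial markers summed to at most 0.367 FPKM. The 4 blood cell markers summed to 0.469 to 0.839 FPKM with CPT-11, 0.718 to 0.741 FPKM with lovastatin + CPT-11, 0.757 to 1.12 FPKM in silenced cells and 0.133 to 0.202 FPKM untreated. ITGAM made up most of that sum, and PTPRC, CD68 and CD3E were each at most 0.113 FPKM. The 6 fibroblast markers summed to 7.32 to 8.86 FPKM with CPT-11, 8.18 to 8.49 FPKM with lovastatin + CPT-11, 7.99 to 9.17 FPKM in silenced cells and 6.79 to 7.06 FPKM untreated. This sum hides opposite changes. ACTA2 had 0.911 to 1.11 FPKM untreated and 1.93 to 2.92 FPKM in treated libraries. VIM had 2.10 to 2.71 FPKM untreated and 0.195 to 1.51 FPKM in treated libraries, lowest in silenced cells. COL1A1 had 3.15 to 5.89 FPKM. DCN was at most 0.00923 FPKM, and COL1A2 and COL3A1 were at most 0.109 FPKM. The part of these markers in the results was not tested. In its dependence on base composition, the third CPT-11 library differed from the other two. Its slope of log2(FPKM + 1) on exonic GC content, relative to the mean of the 12 libraries, was 0.079 per 10 percentage points. In CPT-11 replicates 1 and 2 the slope was -0.147 and -0.170. The slope was 0.012 to 0.071 with lovastatin + CPT-11, 0.098 to 0.128 in silenced cells and -0.136 to -0.012 in untreated cells. Results that rest on this library are given with and without it.

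Of the 317 long genes, 161 (50.8%) had enough reads to be tested (at least 10 in 3 libraries), compared with 69.1% of shorter protein-coding genes. Another 146 had reads but too few, and 10 had none in any library. The untested group held many of the genes best known for their size. DMD, which encodes dystrophin of muscle, averaged 1.75 reads per library, and AUTS2, a neuronal developmental regulator, 0.167 reads per library. AFF3, a member tested through a single group, reached 10 reads only with lovastatin + CPT-11 and had no read in untreated cells. The tested members were expressed at a low level, with a median of 0.616 FPKM, against 5.72 FPKM for shorter genes. Their median of 85.8 reads per library, against 476 for shorter genes, limits what a test can find in them. They were also poorer in GC (median 44.1%, against 49.3%) and longer in exonic sequence (median 11298 bases, against 5019 bases).

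With CPT-11 alone, 22 of the 161 tested long genes were lower than in untreated cells and 8 were higher. Over all 18047 genes tested, 7.72% were lower and 8.85% higher. Among the long genes 13.7% were lower and 4.97% higher (limma on log2(FPKM + 1), Benjamini-Hochberg adjusted p under 0.05 for a call). In each of the 22, all CPT-11 libraries lay below all untreated libraries. The median log2 change of the 161 was -0.03, compared with -0.01 over all genes tested. The background rests on CPT-11 replicate 3. Without that library 21 long genes (13.0%) were lower, and so were 12.9% of all genes tested. With only CPT-11 and untreated libraries in the fit, 9 (5.59%) were lower and 4 (2.48%) higher, beside 2.31% and 4.07% of all genes tested in that fit. With members that overlap another tested gene left out, 14 of 105 (13.3%) were lower and 3 higher. FPKM values are relative to the other RNA of a library, so a change in total RNA per cell would not show. Each library pools many cells, so less RNA per cell and fewer cells expressing a gene cannot be told apart.

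The excess of lower calls lay in the long genes with the highest expression. Members and shorter protein-coding genes were placed in the same 5 expression bands, divided at the quintiles of the members' mean log2(FPKM + 1). In the highest band, 2.63 to 16.1 FPKM, 18 of 33 long genes (54.5%) were lower with CPT-11, compared with 516 of 6574 shorter genes (7.85%). The median log2 change in that band was -0.26 for long genes and 0.00 for shorter genes. In the fourth band, 1.14 to 2.54 FPKM, 2 of 32 long genes were lower and the medians were -0.09 for long genes and 0.03 for shorter genes. Of the 96 long genes in the 3 lower bands, 2 were called lower, GRIN2B and DPYD. The scale log2(FPKM + 1) compresses changes of genes under 1 FPKM, and these bands also had few reads. On log2 recovered reads, long genes lay below shorter genes in every band with CPT-11. The medians of long genes there, from the lowest band up, were 0.22, 0.06, -0.12, -0.15 and -0.34. Those of shorter genes were 0.47, 0.15, 0.08, 0.04 and -0.005.

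**Figure D1:**
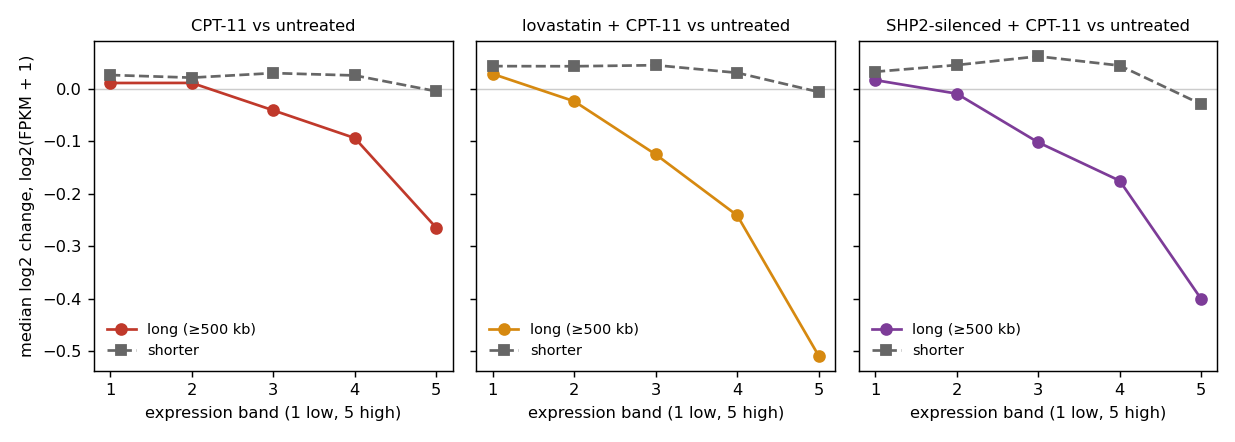
Median log2 change of log2(FPKM + 1) in each of 5 expression bands, from low to high, for long genes (circles, 32 or 33 a band) and shorter protein-coding genes (squares), in 3 comparisons with untreated cells. This scale compresses changes of genes under 1 FPKM. On it, long genes fall away from shorter genes as expression rises. In band 5 the medians of long genes are -0.26 with CPT-11, -0.51 with lovastatin + CPT-11 and -0.40 in silenced cells with CPT-11.

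With lovastatin + CPT-11, 54 long genes were lower and 10 higher than untreated, beside 14.3% lower and 14.7% higher over all genes tested. In the highest band 28 of 33 long genes (84.8%) were lower, compared with 18.0% of shorter genes, with medians of -0.51 and -0.01. In the fourth band 50% of long genes were lower, compared with 10.2% of shorter genes, and in the third 25%, compared with 5.68%. In SHP2-silenced + CPT-11 cells, 47 long genes were lower and 17 higher, beside 19.5% and 18.3% over all genes tested. There, 24 of 33 (72.7%) in the highest band were lower, compared with 26.2% of shorter genes, with medians of -0.40 and -0.03. In the fourth band 34.4% of long genes were lower, compared with 13.6% of shorter genes, and in the third 25%, compared with 8.10%. In the second band 2 of 32 long genes (6.25%) were lower with lovastatin + CPT-11, compared with 1.65% of shorter genes. In silenced cells 4 of 32 (12.5%) were lower there, compared with 4.57% of shorter genes. The excess of lower calls in these combined treatments was thus seen from the second band up, though on few genes in the second. All 3 comparisons use the same untreated libraries and are therefore not independent.

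Joined together, the upper 2 bands held 65 long genes and 8225 shorter genes with a mean of at least 1.14 FPKM. These bands were singled out after their values were seen. Of the 65, 20 (30.8%) were lower and 6 higher with CPT-11, 44 (67.7%) were lower and 4 higher with lovastatin + CPT-11, and 35 (53.8%) were lower and 7 higher in silenced cells with CPT-11. Among the shorter genes of these bands 7.43%, 16.4% and 23.6% were lower in the same 3 comparisons. Without CPT-11 replicate 3, 19 of the 65 long genes (29.2%) were lower with CPT-11, compared with 13.7% of shorter genes. The untreated mean was the highest of the 4 groups in 47 of the 65 long genes. The lowest mean belonged to lovastatin + CPT-11 in 34, to silenced cells in 20, to untreated cells in 9 and to CPT-11 alone in 2.

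**Figure D2:**
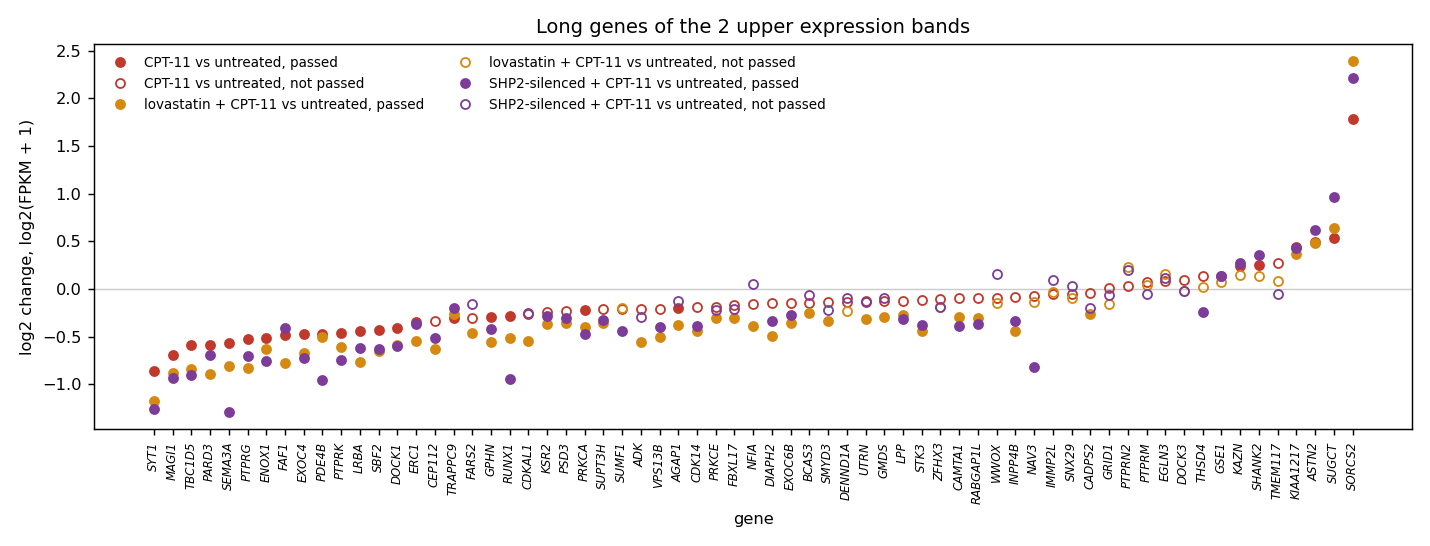
Log2 change of log2(FPKM + 1) against untreated cells for each of the 65 long genes of the upper 2 expression bands, ordered by the change with CPT-11. Filled points passed at an adjusted p under 0.05 and open points did not. SYT1, at -0.86, is the largest fall with CPT-11, and SORCS2, at 1.78, the largest rise.

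The counts of each list below stand beside 7.72%, 14.3% and 19.5% lower, and 8.85%, 14.7% and 18.3% higher, over all genes tested with CPT-11, with lovastatin + CPT-11 and in silenced cells. No list was tested as a whole. The first list was junction, polarity and adhesion genes. Of 14 tested long genes of that list, 4 were lower and none higher with CPT-11, 5 were lower and 2 higher with lovastatin + CPT-11, and 5 were lower and 2 higher in silenced cells. The list's median log2 changes were -0.02, -0.01 and 0.01. MAGI1, a scaffold protein of tight junctions (685 kb, chr3:65353525-66038834, minus strand, 37 exon blocks), had 5.34, 5.57 and 4.57 FPKM with CPT-11, 4.36, 4.16 and 4.69 FPKM with lovastatin + CPT-11, 4.18, 4.02 and 4.32 FPKM in silenced cells, and 9.42, 8.66 and 8.69 FPKM untreated. All 9 treated libraries lay below all 3 untreated ones, and the CPT-11 mean was 0.578 times the untreated mean (log2 change -0.69 ± 0.08 SE, adjusted p = 0.00014).

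PARD3, a polarity protein of the apical junction (706 kb, chr10:34109560-34815325), had 6.25, 6.92 and 5.86 FPKM with CPT-11, 4.63, 5.24 and 4.92 FPKM with lovastatin + CPT-11, 5.77, 5.43 and 6.32 FPKM in silenced cells, and 9.41, 9.70 and 10.96 FPKM untreated. Again no treated library reached the untreated range (CPT-11 log2 change -0.59 ± 0.08, adjusted p = 0.00068). PTPRG, a receptor tyrosine phosphatase at a fragile site (736 kb, chr3:61561569-62297613, plus strand), had 3.95, 3.51 and 3.51 FPKM with CPT-11, 2.64, 2.63 and 3.02 FPKM with lovastatin + CPT-11, 3.23, 3.02 and 3.06 FPKM in silenced cells, and 5.80, 5.55 and 5.74 FPKM untreated. Its lovastatin libraries were below its CPT-11 libraries without overlap, but that difference did not pass (log2 change -0.31 ± 0.07, adjusted p = 0.1). PTPRK, a related phosphatase of cell contacts, averaged 0.695 times its untreated mean with CPT-11 (adjusted p = 0.003). LPP, a zyxin-family protein of focal adhesions, had 3.83, 3.83 and 3.00 FPKM with CPT-11, against 3.72, 3.90 and 4.23 FPKM untreated. Its CPT-11 and untreated libraries overlapped (adjusted p = 0.41), while it was lower with lovastatin + CPT-11 (adjusted p = 0.042) and in silenced cells (adjusted p = 0.02). The 2 adhesion genes that rose in the combined treatments, TENM4 and CDH4, were both expressed below 0.5 FPKM in all libraries.

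Promoters of 3 long genes that were lower in all 3 comparisons with untreated are printed to show the kind of start site from which such transcripts begin. They are the 250 bases before the RefSeq start on GRCh38.p14, 5′ to 3′ on the gene's strand, with CG dinucleotides in capitals. MAGI1 lies at chr3:66038919-66039168 (minus strand, 16 CG), PTPRG at chr3:61561321-61561570 (plus strand, 32 CG) and FAF1 at chr1:50960268-50960517 (minus strand, 20 CG).
MAGI1: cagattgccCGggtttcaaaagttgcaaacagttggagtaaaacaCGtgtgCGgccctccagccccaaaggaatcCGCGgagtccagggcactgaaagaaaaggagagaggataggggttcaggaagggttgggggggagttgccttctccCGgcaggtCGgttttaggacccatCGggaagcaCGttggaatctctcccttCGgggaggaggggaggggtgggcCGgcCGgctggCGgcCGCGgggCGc
PTPRG: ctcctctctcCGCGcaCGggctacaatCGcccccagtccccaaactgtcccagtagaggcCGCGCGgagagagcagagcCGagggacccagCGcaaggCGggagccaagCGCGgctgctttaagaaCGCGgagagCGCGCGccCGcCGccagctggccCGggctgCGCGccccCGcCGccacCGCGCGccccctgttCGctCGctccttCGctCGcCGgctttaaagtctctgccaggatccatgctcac
FAF1: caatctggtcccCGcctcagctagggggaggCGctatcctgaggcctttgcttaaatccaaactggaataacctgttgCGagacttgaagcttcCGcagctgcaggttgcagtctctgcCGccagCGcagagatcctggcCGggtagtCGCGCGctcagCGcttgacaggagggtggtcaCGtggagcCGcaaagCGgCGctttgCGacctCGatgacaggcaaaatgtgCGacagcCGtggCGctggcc
These starts lie 84, 2 and 4 bases from the starts in the annotation of the table. Promoters were matched for 18 of the 22 long genes lower with CPT-11, with a median of 23 CG in 250 bases. The 134 matched long genes tested had a median of 17, the 10640 matched shorter genes tested 21, and all 27305 RefSeq promoters a median of 11. GGGCGG on either strand was found in 66.7% of the promoters of long genes lower with CPT-11, 50% of long genes tested, 66.9% of shorter genes tested and 42.3% of all. TATAAA on either strand was found in 5.56%, 9.70%, 5.52% and 11.1% of the same 4 sets. These counts describe letters and not binding.

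Among signalling genes, 2 of 14 tested members were lower with CPT-11 (DOCK1 and PRKCA), 3 with lovastatin + CPT-11 and 2 in silenced cells, and 1, PRKG1, was higher in silenced cells. In silenced cells the lower count was below the 19.5% of all genes tested. The list's median log2 changes were 0.02, 0.03 and 0.02. DOCK1, which activates the small GTPase RAC1, had 9.67, 9.25 and 8.54 FPKM with CPT-11, 8.08, 7.70 and 8.23 FPKM with lovastatin + CPT-11, 7.94, 7.82 and 8.04 FPKM in silenced cells, and 11.7, 13.3 and 12.6 FPKM untreated. All treated libraries of DOCK1 lay below the untreated range (CPT-11 log2 change -0.41 ± 0.06, adjusted p = 0.0012). Outside that list, 3 further regulators were lower in all 3 comparisons with untreated. PDE4B, a phosphodiesterase that breaks down cAMP, had 11.4, 11.3 and 10.4 FPKM with CPT-11, 10.7, 10.5 and 10.8 FPKM with lovastatin + CPT-11, 6.70, 7.75 and 8.27 FPKM in silenced cells, and 14.7, 15.7 and 16.5 FPKM untreated. FAF1, a ubiquitin-binding protein first found as a partner of the death receptor FAS, had 5.63, 5.65 and 5.76 FPKM with CPT-11, 4.67, 4.47 and 4.21 FPKM with lovastatin + CPT-11, 5.77, 5.95 and 6.39 FPKM in silenced cells, and 7.98, 8.42 and 8.66 FPKM untreated. FAF1 thus had its lowest values with lovastatin + CPT-11 and PDE4B its lowest in silenced cells. SEMA3A, a secreted axon guidance signal, had 3.61, 3.87 and 2.62 FPKM with CPT-11, 2.42, 2.74 and 2.86 FPKM with lovastatin + CPT-11, 1.55, 1.56 and 1.78 FPKM in silenced cells, and 4.82, 5.90 and 5.60 FPKM untreated. With only CPT-11 and untreated libraries in the fit, SEMA3A lost its CPT-11 call.

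Of 15 tested trafficking, cytoskeleton and scaffold genes, 3 were lower and 1 higher with CPT-11, 8 were lower and 1 higher with lovastatin + CPT-11, and 8 were lower and 1 higher in silenced cells. Their median log2 changes were -0.08, -0.19 and -0.27 in those comparisons, beside -0.01, 0.00 and 0.00 over all genes tested. TBC1D5, a Rab7 regulator that works with retromer (1288 kb, chr3:17157162-18444817), had 3.80, 4.12 and 3.57 FPKM with CPT-11, 2.84, 3.20 and 3.13 FPKM with lovastatin + CPT-11, 2.62, 2.95 and 3.13 FPKM in silenced cells, and 5.76, 6.54 and 6.55 FPKM untreated. It holds a stretch of 702 kb without an annotated exon. EXOC4, a subunit of the exocyst, had 3.37, 3.10 and 2.39 FPKM with CPT-11, 2.35, 2.42 and 2.50 FPKM with lovastatin + CPT-11, 2.42, 2.15 and 2.30 FPKM in silenced cells, and 4.34, 4.63 and 4.38 FPKM untreated. Its CPT-11 call was lost with only CPT-11 and untreated libraries in the fit. LRBA, a BEACH-domain protein of endosomal sorting with 66 exon blocks, had 11.03, 11.8 and 9.19 FPKM with CPT-11, 7.70, 8.58 and 8.61 FPKM with lovastatin + CPT-11, 8.97, 9.47 and 9.27 FPKM in silenced cells, and 13.4, 15.2 and 15.7 FPKM untreated. In these 3 genes each treated group lay below the untreated group without overlap. VPS13B, a lipid transfer protein of the Golgi, also lay below without overlap with CPT-11 at 0.849 times the untreated mean, but did not pass (adjusted p = 0.2), and passed with lovastatin + CPT-11 (0.659 times, adjusted p = 0.0039) and in silenced cells (0.716 times, adjusted p = 0.0096). SYNE1, a giant linker of nucleus and cytoskeleton at 0.383 to 0.807 FPKM, was the member that rose in all 3 comparisons (log2 changes 0.28, 0.22 and 0.28).

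Transcription and chromatin genes were lower in 2, 5 and 3 of 14 tested, in the order CPT-11, lovastatin + CPT-11 and silenced cells, and higher in none. In silenced cells that was near the 19.5% of all genes tested. The list's median log2 changes were -0.03, -0.06 and -0.02. A gene counted there, TBC1D5, is a trafficking gene by its known role and stands in both lists. RUNX1, a Runt-domain transcription factor spanning 1217 kb, had 4.99, 4.45 and 4.25 FPKM with CPT-11, 3.74, 3.67 and 3.75 FPKM with lovastatin + CPT-11, 2.76, 2.46 and 2.30 FPKM in silenced cells, and 5.58, 5.88 and 5.81 FPKM untreated. These 4 ranges did not overlap, with silenced cells lowest. SMYD3, a lysine methyltransferase, passed with lovastatin + CPT-11 alone (0.726 times untreated, adjusted p = 0.017), with CPT-11 at 0.880 times (adjusted p = 0.35) and silenced cells at 0.815 times (adjusted p = 0.08). FOXP1, a forkhead factor, had only 0.0172 to 0.0979 FPKM and passed in no comparison (adjusted p of 0.29 to 0.88).

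Of 12 tested synapse and channel genes, SYT1 and GRIN2B fell and ASTN2 rose with CPT-11 and with lovastatin + CPT-11, while in silenced cells SYT1 fell and ASTN2 and CACNA1C rose. The list's median log2 changes were -0.01, -0.04 and -0.01. SYT1, the calcium sensor of synaptic vesicle release (588 kb, chr12:78863993-79452008), was well expressed in this carcinoma line and gave the largest fall with CPT-11. It had 8.55, 8.69 and 6.62 FPKM with CPT-11, 5.82, 6.13 and 6.56 FPKM with lovastatin + CPT-11, 5.21, 5.94 and 6.08 FPKM in silenced cells, and 13.7, 16.2 and 15.8 FPKM untreated. The CPT-11 mean was 0.523 times the untreated mean (log2 change -0.86 ± 0.10, adjusted p = 0.00022), with 890 reads per library behind it. The 4 neuron markers, RBFOX3, SYP, SNAP25 and TUBB3, summed to 2.55 to 3.09 FPKM with CPT-11, 3.16 to 4.79 FPKM with lovastatin + CPT-11, 2.73 to 3.12 FPKM in silenced cells and 3.21 to 3.63 FPKM untreated, mostly from TUBB3. That sum lay below the untreated range in every library with CPT-11 and in silenced cells. With lovastatin + CPT-11 it ran from just below that range to above it. The relation of these markers to SYT1 was not tested. ENOX1, a cell-surface oxidase, had 2.29, 2.36 and 1.48 FPKM with CPT-11, against 3.05, 3.74 and 3.15 FPKM untreated (log2 change -0.51 ± 0.13, adjusted p = 0.02). It lost its call without untreated replicate 2, with no filter on low values, or with only CPT-11 and untreated libraries in the fit. GRIN2B, an NMDA receptor subunit, had 0.541, 0.475 and 0.475 FPKM with CPT-11, against 0.703, 0.773 and 0.985 FPKM untreated.

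**Figure D3:**
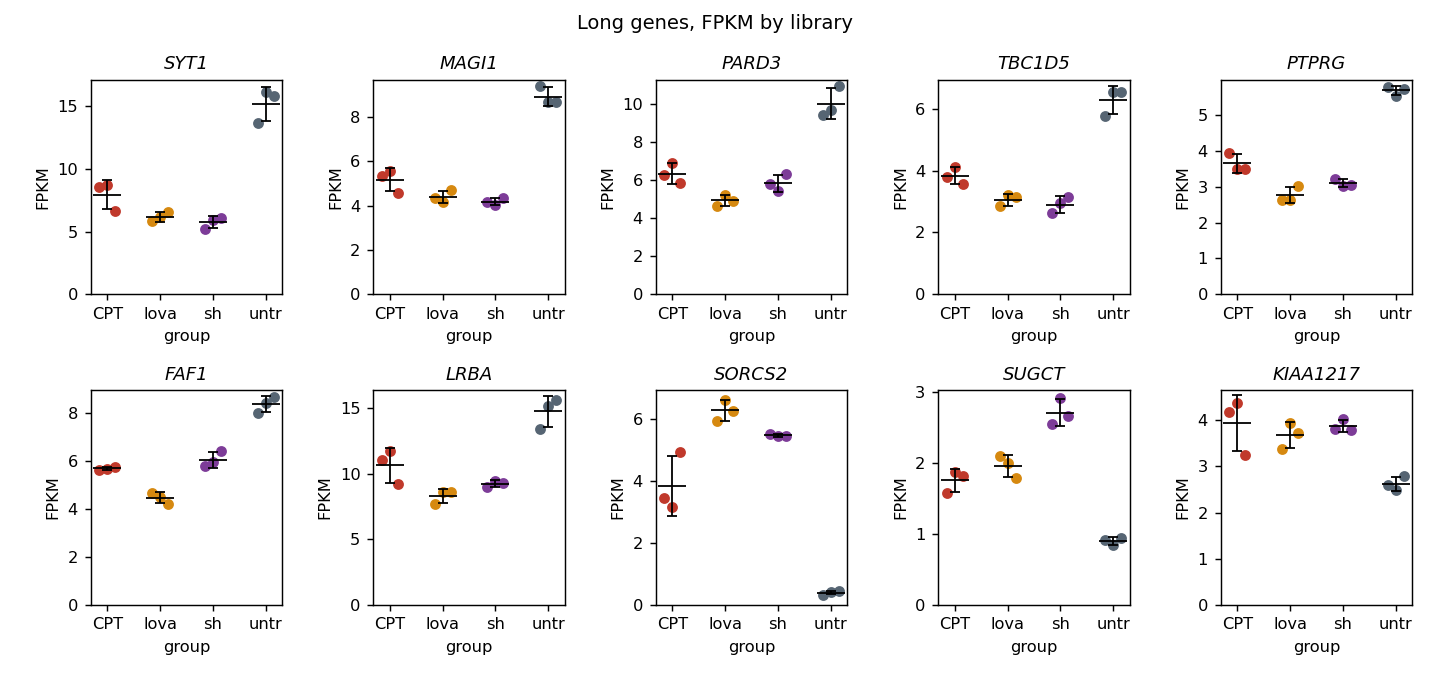
FPKM of 10 long genes in each library (points), with the group mean (line) and SD (bars) of 3 libraries, for CPT-11 (CPT), lovastatin + CPT-11 (lova), SHP2-silenced + CPT-11 (sh) and untreated cells (untr). The first 7 genes are below the untreated range in all 9 treated libraries, and SORCS2, SUGCT and KIAA1217 are above it.

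The other members lower with CPT-11 are given by their changes. SBF2 (a myotubularin-family protein), ERC1 (a scaffold of vesicle docking), TRAPPC9 (a TRAPP complex subunit), GPHN (gephyrin) and AGAP1 (an ARF GTPase-activating protein) had log2 changes of -0.43, -0.35, -0.31, -0.30 and -0.20. PRKCA, protein kinase C alpha, had -0.22, and DPYD, the enzyme that begins the breakdown of uracil and of fluorouracil, had -0.16. DPYD had 0.234, 0.293 and 0.288 FPKM with CPT-11, 0.206, 0.200 and 0.195 FPKM with lovastatin + CPT-11, 0.156, 0.150 and 0.182 FPKM in silenced cells, and 0.455, 0.407 and 0.399 FPKM untreated. Its groups did not overlap, although only 29.4 reads per library stood behind these values.

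A few long genes rose. SORCS2, a sorting receptor of the VPS10 family (550 kb, GC 61.6%), had 3.43, 3.14 and 4.94 FPKM with CPT-11, 5.93, 6.59 and 6.25 FPKM with lovastatin + CPT-11, 5.51, 5.43 and 5.42 FPKM in silenced cells, and 0.328, 0.409 and 0.429 FPKM untreated. The CPT-11 mean was 9.87 times the untreated mean (log2 change 1.78 ± 0.12, adjusted p = 3e-06), and this was the largest change of either sign among the long genes in that comparison. SUGCT, a mitochondrial CoA-transferase of glutarate metabolism, had 1.58, 1.88 and 1.82 FPKM with CPT-11, 2.10, 2.00 and 1.79 FPKM with lovastatin + CPT-11, 2.56, 2.92 and 2.66 FPKM in silenced cells, and 0.919, 0.839 and 0.948 FPKM untreated. KIAA1217 averaged 1.501 times its untreated mean with CPT-11 (adjusted p = 0.0089). That call was lost with only CPT-11 and untreated libraries in the fit. ASTN2, a neuronal membrane protein, averaged 1.86 times its untreated mean (adjusted p = 0.0029). TRIM32, a ubiquitin ligase gene on the opposite strand inside ASTN2, was also higher, at a mean of 15.3 FPKM with CPT-11 and 11.5 FPKM untreated (log2 change 0.39 ± 0.06, adjusted p = 0.0011). Whether counting used strand is not stated here, and reads of this pair cannot be told apart. The smaller rises of SHANK2, a synaptic scaffold (log2 change 0.25), and KAZN, a desmosome-associated protein (0.24), lost their calls when single libraries were left out. For SHANK2 these were CPT-11 replicate 1 or 2 or any untreated replicate, and for KAZN CPT-11 replicate 3 or any untreated replicate. MAST4, a kinase at 0.0877 to 0.666 FPKM, and SYNE1 were the other rises.

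Genes at common fragile sites had median log2 changes of -0.02, -0.04 and 0.01 with CPT-11, lovastatin + CPT-11 and in silenced cells. Of 19 tested, 1 was lower with CPT-11 (PTPRG), 3 with lovastatin + CPT-11 (PTPRG, DIAPH2 and NBEA) and 3 in silenced cells (the same genes). FHIT, a dinucleotide hydrolase spanning 1502 kb, had 0.579, 0.481 and 0.422 FPKM with CPT-11, 0.518, 0.594 and 0.348 FPKM with lovastatin + CPT-11, 0.661, 0.665 and 0.625 FPKM in silenced cells, and 0.432, 0.476 and 0.523 FPKM untreated. CPT-11 and untreated values of FHIT overlapped (log2 change 0.02 ± 0.07, adjusted p = 0.91). WWOX, an oxidoreductase spanning 1113 kb, had 1.33, 1.14 and 1.47 FPKM with CPT-11, against 1.22, 1.65 and 1.54 FPKM untreated (adjusted p = 0.53). IMMP2L, a mitochondrial peptidase subunit spanning 899 kb, had 1.14, 1.26 and 1.15 FPKM with CPT-11, against 1.296, 1.09 and 1.41 FPKM untreated (adjusted p = 0.78). The 3 longest tested members, CNTNAP2 (2305 kb), DLG2 (2173 kb) and MACROD2 (2058 kb), averaged 0.240, 0.0616 and 0.0668 FPKM and passed in no comparison with untreated, with log2 changes of -0.04, 0.01 and -0.02 with CPT-11.

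None of 5 repair and genome maintenance members passed with CPT-11 or in silenced cells, and RAD51B and SMYD3 were lower with lovastatin + CPT-11. The list's median log2 changes were -0.09, -0.15 and 0.01. RAD51B, a gene of homologous recombination, had 0.603, 0.708 and 0.598 FPKM with CPT-11, 0.524, 0.416 and 0.566 FPKM with lovastatin + CPT-11, 0.594, 0.777 and 0.604 FPKM in silenced cells, and 0.822, 0.776 and 0.861 FPKM untreated. Its CPT-11 libraries all lay below the untreated ones but did not pass (adjusted p = 0.14). Of the 161 tested members, 75 stood in at least 1 of the lists and 86 in none.

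The shares of changed genes were also compared over the whole range of span. Within the upper 2 expression bands, the share of protein-coding genes lower with CPT-11 was 5.86% for spans under 20 kb, 5.65% for 20 to 50 kb, 6.07% for 50 to 100 kb, 11.7% for 100 to 200 kb, 17.5% for 200 to 500 kb and 30.8% from 500 kb. With lovastatin + CPT-11 the shares were 6.05%, 12.8%, 17.9%, 32.5%, 43.6% and 67.7% in the same order of spans. In silenced cells they were 10.6%, 20.1%, 29.5%, 42.3%, 45% and 53.8%. Genes higher than untreated with lovastatin + CPT-11 were 26.3% under 20 kb, 5.51% at 200 to 500 kb and 6.15% from 500 kb. Of the 26 tested genes of at least 1000 kb, 2 (7.69%) were lower with CPT-11, 3 (11.5%) with lovastatin + CPT-11 and 2 (7.69%) in silenced cells. These shares lay at or below the 7.72%, 14.3% and 19.5% of all genes tested, and 6 of the 26 were in the upper 2 bands. Within the long genes themselves span ordered the changes little. The Spearman coefficient between span and the change relative to shorter genes was 0.26, 0.23 and 0.10 over the 65 members. Being positive, it means that longer members tended to fall less, opposite to the direction across the span classes. The coefficient with GC content was 0.31, 0.50 and 0.51. These members share libraries and differ in GC content. Span covers all annotated transcripts of a gene. Which of them these cells used was not examined, so the template crossed may be shorter than the span. SPOCK3 and KCNAB1, just inside the 500 kb threshold, had log2 changes with CPT-11 of -0.07 and -0.13. DIAPH3 and RPS6KA2, just outside, had -0.28 and -0.17. AFF2 inside and CACNA2D1 outside were not tested.

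**Figure D4:**
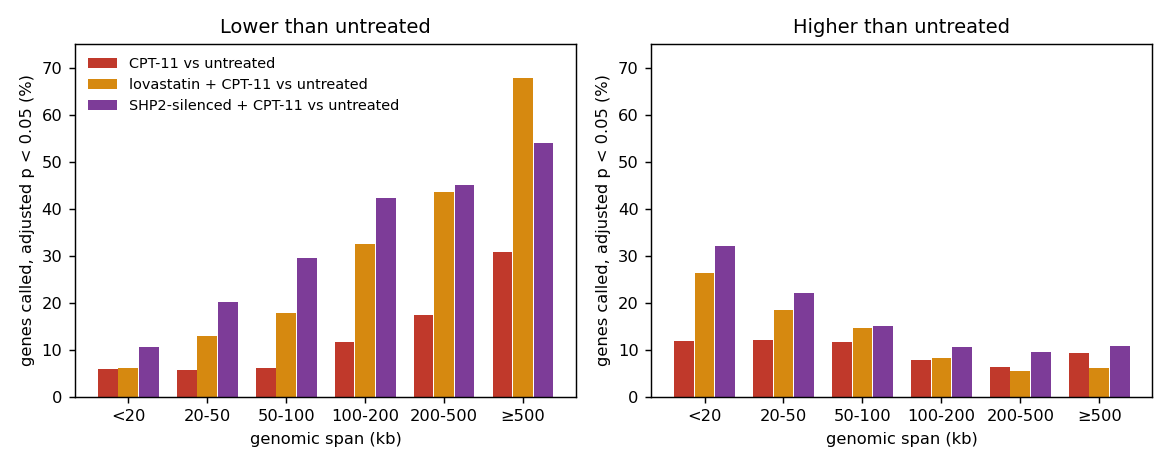
Percent of protein-coding genes of the upper 2 expression bands that were lower (left) or higher (right) than untreated, by genomic span, for 3 comparisons. Shares of lower genes are higher in the classes from 100 kb than in those below, up to 30.8%, 67.7% and 53.8% from 500 kb.

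Base composition moved with span. Median exonic GC over the 6 span classes of these bands, short to long, was 55.6%, 47.6%, 44.6%, 44.5%, 44.9% and 47.1%. With CPT-11, 29.6% of the 27 long genes under 45% GC were lower, compared with 6.84% of 3158 shorter genes, and 31.6% of the 38 at 45% or more, compared with 7.81% of 5060 shorter genes. With lovastatin + CPT-11 the shares of long and shorter genes were 92.6% and 25.2% under 45% GC, and 50% and 10.9% above. In silenced cells they were 74.1% and 41.3% under 45% GC, and 39.5% and 12.6% above. The excess of lower calls among long genes was present on both sides of the split in all 3 comparisons. Calls of shorter genes also differed with GC in the combined treatments. The split did not match long and shorter genes in GC content. Median GC of long and shorter genes was 42.3% and 40.4% under the cut, and 50.4% and 54.8% above it. When a trend over GC and exonic length was removed from log2(FPKM + 1) in each library, 29 of the 161 were lower and 9 higher with CPT-11, 45 lower and 21 higher with lovastatin + CPT-11, and 35 lower and 44 higher in silenced cells. The lower shares were then 18.0%, 28.0% and 21.7% of long genes, beside 13.6%, 18.6% and 21.2% of all genes tested. In silenced cells the share lower was thus near that of all genes, and the share higher was 27.3%, beside 18.96% of all genes. In the upper 2 bands 25 (38.5%), 41 (63.1%) and 31 (47.7%) long genes were lower, compared with 15.1%, 20.8% and 23.2% of shorter genes, and 7, 4 and 6 were higher. The outcome in silenced cells depended on the scale. With that trend removed from log2 recovered reads, 55 of the 161 (34.2%) were lower there and 22 (13.7%) higher. Of all genes tested in that fit, 25.7% were lower and 16.1% higher.

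By library, the median difference of the 65 long genes from shorter genes of their band, relative to the untreated mean, was -0.146, -0.160 and -0.302 on the log2(FPKM + 1) scale with CPT-11. It was -0.413, -0.354 and -0.334 with lovastatin + CPT-11, -0.299, -0.278 and -0.270 in silenced cells, and -0.048, 0.014 and 0.030 in untreated cells. Every treated library lay below every untreated one, and CPT-11 replicate 3 lay below the other 2 CPT-11 libraries and below the silenced ones. On log2 recovered reads with the trend over GC and length removed, the CPT-11 values were closer to each other, at -0.226, -0.241 and -0.296. On that scale the others were -0.469, -0.451 and -0.415 with lovastatin + CPT-11, -0.322, -0.344 and -0.323 in silenced cells, and -0.027, 0.025 and 0.015 in untreated cells.

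**Figure D5:**
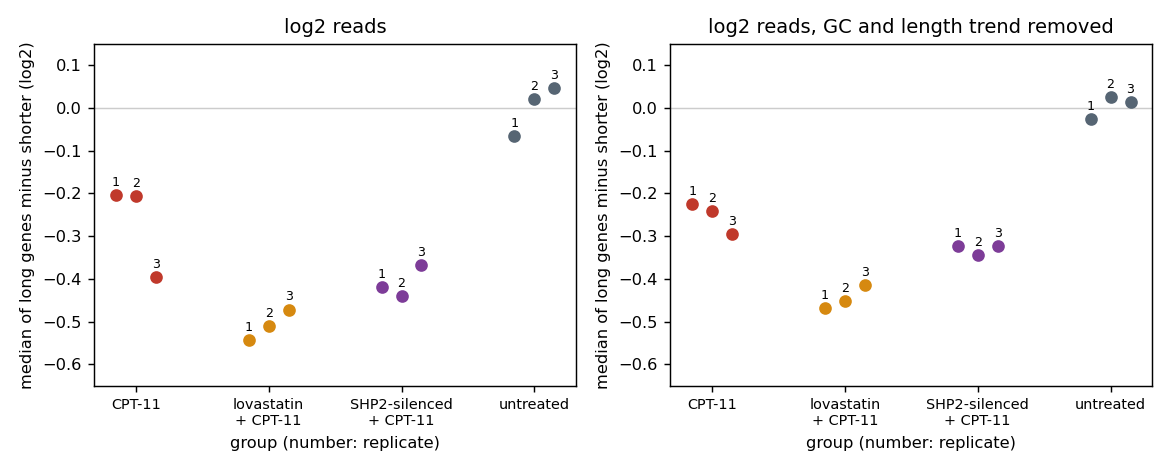
Median difference between the 65 long genes of the upper 2 bands and shorter genes of like expression, per library relative to the untreated mean, on log2 recovered reads without (left) and with (right) removal of a trend over GC and exonic length. Untreated libraries lie near 0 and all 9 treated libraries lie below, from -0.203 to -0.544 on the left and from -0.226 to -0.469 on the right.

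Against CPT-11 alone, lovastatin + CPT-11 changed no long gene past the threshold, beside 0.465% changed in either direction over all genes tested (0.072% lower and 0.393% higher). All 161 had a median log2 change of -0.06, compared with 0.00 over all genes tested, and 116 of them were below 0. This comparison rested on CPT-11 replicate 3. Without it, 33 long genes (20.5%) were lower and 1 (0.621%) higher, beside 14.3% lower and 15.9% higher over all genes tested, and in the upper 2 bands 30 of 65 (46.2%) were lower, compared with 19.2% of shorter genes. With the trend over GC and length also removed, these were 12 lower (7.45%) and 20 higher (12.4%) of 161, beside 8.53% and 8.02% of all genes tested, and 12 of 65 (18.5%) lower in the upper 2 bands, compared with 8.01% of shorter genes. With all libraries and that trend removed, 0 were lower and 1 higher.

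SHP2-silenced + CPT-11 cells differed from CPT-11 alone in 17 lower and 5 higher long genes, beside 12% lower and 10% higher over all genes tested. In the upper 2 bands 12 of 65 (18.5%) were lower, a share near the 16.1% of shorter genes. NAV3, a microtubule-binding protein, had 1.08, 1.23 and 1.06 FPKM in silenced cells with CPT-11, against 2.77, 2.79 and 2.11 FPKM with CPT-11 alone (log2 change -0.74 ± 0.10, adjusted p = 0.0014). CPT-11 alone and untreated cells, at 2.45, 2.70 and 3.09 FPKM, overlapped in NAV3. SEMA3A, RUNX1 and PDE4B followed, at log2 changes of -0.72, -0.67 and -0.49 (adjusted p = 0.0033, 0.0004 and 0.0027). SYT1 was lower by 0.40 ± 0.10 on the log2 scale (adjusted p = 0.021) but lost its call without CPT-11 replicate 1 or 2 or silenced replicate 1 or 2. SUGCT and SORCS2 were higher, both by 0.43 (adjusted p = 0.0057 and 0.025). The call of SORCS2 was lost without CPT-11 replicate 1 or 2, without any silenced replicate, and with the GC trend removed. With only silenced and CPT-11 libraries in the fit, SYT1, SUGCT and SORCS2 all lost their calls. Without CPT-11 replicate 3, 33 long genes were lower and 6 higher, and 38.5% of the long genes of the upper 2 bands were lower, compared with 29.8% of shorter genes. Over all 161 this was 20.5% lower, beside 21.9% of all genes tested.

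The enzyme that CPT-11 acts on was itself measured. TOP1 had 105, 112 and 84.5 FPKM with CPT-11, 76.6, 80.0 and 83.1 FPKM with lovastatin + CPT-11, 70.9, 69.7 and 72.0 FPKM in silenced cells, and 101, 105 and 112 FPKM untreated. It was lower with lovastatin + CPT-11 (adjusted p = 0.0061) and in silenced cells (adjusted p = 0.00055), and overlapped untreated cells with CPT-11 alone (adjusted p = 0.58). Of 12 genes for topoisomerases and the removal of their adducts, none passed with CPT-11, 3 were lower with lovastatin + CPT-11, and 5 were lower and 1 higher in silenced cells. Their median log2 changes were -0.05, -0.12 and -0.15. Of 28 tested genes for elongation by RNA polymerase II, 2 were lower and 1 higher with CPT-11, 8 lower and 3 higher with lovastatin + CPT-11, and 13 lower and 1 higher in silenced cells, with median log2 changes of -0.05, -0.15 and -0.21. SSRP1, a subunit of the FACT histone chaperone, averaged 42.7 ± 1.98 FPKM with CPT-11 and 59.7 ± 1.59 FPKM untreated (SD, n = 3 each, with limma's adjusted p = 0.00012).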

How the data were processed

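Per the labels' protocols, total RNA of HCT-116 cells was made into libraries with NEBNext Ultra reagents and sequenced. The authors deposited FPKM values. Per the submitters' processing notes, the tools included DESeq2 1.16.1, featureCounts 1.5.0-p3, StringTie 1.3.3b and HISAT2 2.0.5, and the build was hg19. Start and end of all 58735 Ensembl rows were nevertheless identical to GENCODE release 29 on GRCh38, whose coordinates are given here. How counting treated strand, overlapping genes and reads with several hits is not stated here.

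FPKM times exonic length gave whole multiples of 1 step per library for 100% of values (tolerance 0.01), and these reads summed to 14447847 to 16224271 per library. The deposited scale followed a size factor, the median ratio of a library's reads to the geometric mean of all libraries. Relative to that factor the scale was 0.999 to 1.002 times its mean. Relative to total reads it was 0.961 (untreated replicate 2) to 1.042 (SHP2-silenced + CPT-11 replicate 1) times its mean. The main test was limma 3.58.1 (R 4.3.3) with a trend on log2(FPKM + 1), over all 12 libraries with a mean per group. It covered 18047 genes with at least 10 reads in 3 libraries and 15 in all, and p-values were adjusted by Benjamini-Hochberg over all of them. SE is limma's standard error. A fold change on this scale understates changes of low genes. Expression bands, list counts and figures were computed in Python 3.11.15 with pandas 2.3.3, numpy 2.4.6 and scipy 1.17.1. The GC content is that of each gene's longest transcript. The scripts were tested on simulated data. Same-numbered libraries deviated from their group means with correlations of -0.39 to 0.18, and differently numbered ones with -0.33 to 0.45. Replicate numbers were therefore not taken to pair samples in the main test. With 3 libraries a group, this check cannot exclude a culture or batch shared by number.

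Genes named in the text are the 10 largest passing falls and rises with CPT-11 and 5 in each other comparison (at least 1 FPKM in the higher group, no overlap), a set of well-known long genes, the genes at the threshold, the 3 longest tested and up to 3 per list. Other members named were chosen after their values were seen. The members and lists were chosen with earlier results of these data known. Promoter sequences are from RefSeq on GRCh38.p14. Alternatives covered filters, pseudocount, scaling, reads in place of FPKM, GC and length, span threshold, overlapping genes and each library left out. Results for a few members are not reported here.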

Additional observations from a re-analysis of the deposited data

How the results depend on the processing

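Comparisons 1 to 3 set CPT-11, lovastatin + CPT-11 and SHP2-silenced + CPT-11 against untreated, and comparisons 4 and 5 set lovastatin + CPT-11 and SHP2-silenced + CPT-11 against CPT-11. Values run in that order, and the offset is the median log2 change of long genes minus that of shorter genes of like expression (-0.058, -0.108, -0.096, -0.072 and -0.041 as reported; -0.186, -0.356 and -0.278 in the upper 2 bands). Removing a GC and length trend gave 21 and 44 higher in comparisons 2 and 3, 1 higher in comparison 4, 9 lower and 21 higher in comparison 5, and offsets of -0.0135, 0.0124, 0.0029 and 0.0378 in comparisons 2 to 5, so 3 offsets changed sign. Upper-band offsets were -0.303 and -0.202 in comparisons 2 and 3. With CPT-11 replicate 3 also left out, comparison 4 gave 12 lower, 20 higher, an offset of -0.0031 and 12 lower in the upper bands, and comparison 5 46 higher and an offset of 0.0418. The replicate block gave 18, 50, 45, 0 and 10 lower, and 7 lower in the upper bands of comparison 5; with the GC and length trend removed as well, the block gave 29 lower and 35 higher in comparison 3, 1 higher in comparison 4, 7 lower and 12 higher in comparison 5, 6 lower in its upper bands, and the offsets just given for that trend. The check above gave no sign that replicate numbers pair the samples, but cannot exclude it. A mean of at least 1 FPKM gave offsets of -0.175, -0.346, -0.295, -0.168 and -0.105, with 4 and 7 higher in comparisons 2 and 3, 1 lower, 1 higher and 1 lower in the upper bands of comparison 4, and 2 higher in comparison 5. A mean of at least 10 reads gave 1 higher in comparison 4. With no filter the offsets were 0, -0.0029, 0, -0.0072 and -0.0045, with 4 higher in comparison 1 and 7 lower, 2 higher and 7 lower in the upper bands of comparison 5. With only the groups compared in the fit, 9 were lower and 4 higher in comparison 1 (upper bands 9 and 3), and 4 lower and 0 higher in comparison 5 (upper bands 4 lower). Scaling to library totals gave 18, 45 and 37 lower in comparisons 1 to 3, beside 5.57%, 10.8% and 14.3% of all genes tested. It gave 9, 10 and 18 higher there, beside 10.6%, 17.9% and 24.0% of all genes tested. A pseudocount of 0.1 gave offsets of -0.163, -0.325, -0.290, -0.194 and -0.104, and upper-band offsets of -0.472 and -0.372 in comparisons 2 and 3. Recovered reads with voom gave offsets of -0.208, -0.429, -0.370, -0.224 and -0.138, upper-band offsets of -0.495 and -0.398, and 3 lower (3 in the upper bands) and 1 higher in comparison 4. Voom with the GC and length trend removed gave 44 lower and 13 higher in comparison 1 (36 lower in the upper bands), 17 higher in comparison 2, 4 lower (4 in the upper bands) and 1 higher in comparison 4, 13 higher in comparison 5, offsets of -0.202, -0.289, -0.241 and -0.148 in comparisons 1 to 4, and -0.443 in the upper bands of comparison 2. From 300 kb, 85, 183, 174, 0 and 65 were lower and 24, 21, 45, 0 and 21 higher, upper bands held 68, 152, 134, 0 and 54 lower and 14, 8 and 20 higher, and offsets were -0.161 and -0.132 in comparisons 2 and 3. From 1000 kb, 2, 3, 2, 0 and 2 were lower and 1, 0, 2, 0 and 0 higher, upper bands held 2, 2, 2, 0 and 2 lower and 1, 0 and 1 higher, offsets were -0.0737, -0.0261, -0.0307 and -0.000928 in comparisons 2 to 5, and upper-band offsets -0.197 and -0.0598. Leaving out members that overlap another tested gene gave 14 and 29 lower in comparisons 1 and 3, 11 in comparison 5, 3, 6 and 9 higher in comparisons 1 to 3, and in the upper bands 12 and 22 lower in comparisons 1 and 3 and 2, 2 and 2 higher. Against shorter genes under 50 kb, offsets were -0.132, -0.127, -0.115 and -0.0751 in comparisons 2 to 5, and -0.431 and -0.370 in the upper bands. Leaving out 1 library at a time gave 16 to 21, 39 to 51, 33 to 49, 0 to 33 and 5 to 33 lower, and 6 to 8, 6 to 9, 11 to 14, 0 to 1 and 2 to 6 higher. Offsets then ranged from -0.0677 to -0.0346, -0.131 to -0.102, -0.102 to -0.0819, -0.104 to -0.0572 and -0.0531 to -0.0236. In the upper bands 15 to 19, 35 to 41, 26 to 35, 0 to 30 and 5 to 25 were lower, and 4 to 5, 3 to 4 and 6 to 7 higher, with offsets of -0.208 to -0.146, -0.385 to -0.339 and -0.319 to -0.271. The upper bands, voom with the trend removed, and the trend removed without CPT-11 replicate 3 were chosen after seeing the data. The cause of these shifts was not tested, apart from the smaller samples or gene sets by construction. Of the 16 genes named for CPT-11 against untreated, 10 kept their call and none changed sign under all 18 alternatives run. Long genes at low read counts limit all of these counts.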

Other observations

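Very long genes outside the protein-coding class were counted separately. Of 77 noncoding or other features with a span of at least 500 kb, 12 were tested, and 2, 3 and 3 were lower than untreated with CPT-11, lovastatin + CPT-11 and in SHP2-silenced + CPT-11 cells, with none higher (limma, adjusted over all genes tested). Over all genes tested 7.72%, 14.3% and 19.5% were lower in these comparisons. MIR100HG, the host transcript of a microRNA cluster, averaged 3.01 FPKM with CPT-11, 2.62 FPKM with lovastatin + CPT-11, 2.50 FPKM in silenced cells and 4.64 FPKM untreated, with adjusted p = 0.0021 for CPT-11. ZFPM2-AS1, an antisense RNA, averaged 5.24, 4.54 and 4.35 FPKM in the same treated groups and 7.10 FPKM untreated, with adjusted p = 0.032 for CPT-11. Strand use in the counting is not given, so reads of ZFPM2-AS1 and of genes on the other strand cannot be told apart. AC016205.1 averaged 0.691, 0.504 and 0.614 FPKM in the treated groups and 1.06 FPKM untreated, and passed with lovastatin + CPT-11 (adjusted p = 0.0088) and in silenced cells (adjusted p = 0.026).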
